A study of Mus musculus with 26 samples.

Results

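Brown adipose tissue (BAT) of 7 mice labelled as fat-specific Afadin knock-outs (FAKO) was compared with that of 5 control littermates (CTRL), all killed after 6 h at 5 °C. These 12 libraries were taken by the genotype and temperature in their labels, out of 26 in the whole series. The other 14 libraries are from 7 CTRL and 7 FAKO mice that stayed at thermoneutrality (30 °C in the labels, slightly lower in the methods of the study) and are used here only to set a genotype difference after cold beside the one without cold. All mice were C57BL/6J males aged 12 to 16 weeks, housed singly, and all had spent 2 weeks at thermoneutrality. FAKO mice carried Adiponectin-Cre and floxed alleles of Mllt4, the older name of Afdn. Adiponectin-Cre acts in adipocytes, white as well as brown, and leaves Afdn intact in the vessels, nerves, stroma and blood cells of the tissue. Which of these alleles the control littermates carried is not given in the sources used here. The question is which genes, gene classes and cell type markers differ between the genotypes once BAT has been activated by cold.

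Brown adipocytes burn fat and glucose to make heat. Cold acts on them through sympathetic nerves, which release noradrenaline onto beta-adrenergic receptors, raise cyclic AMP, start lipolysis and switch on Ucp1, the gene of the protein that uncouples respiration from ATP synthesis. Afadin is a scaffold protein of cell junctions that ties nectins, a family of adhesion molecules, to the actin cytoskeleton. BAT also holds endothelial cells, pericytes, fibroblasts, nerve fibres, macrophages and blood, and a dissected pad can carry some muscle. In such bulk tissue, fewer cells of a type and less RNA per cell cannot be told apart.

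Each library comes from 1 mouse and is named by the number in its label (CTRL 16 to FAKO 28). The total counts ran from 14639937 to 25732258, and the 31 pairs of mice within a group all differed by more than sampling noise (lowest chi-square per gene 11.4). After a filter on low counts, 17286 genes were tested with edgeR's quasi-likelihood test, and a gene was called where its p, adjusted over all these genes by Benjamini-Hochberg, was below 0.05. Levels are given in CPM, counts scaled to a common library total with TMM factors. Ucp1, the defining marker of the labelled tissue, stood between 13014 and 20990 CPM in all 12 mice. Several libraries stood apart from others of the same group, and whether genotype had a part in this was not tested. The main axis of variation among the 500 most variable genes took 76.5% of their variance and followed the level of skeletal muscle genes, with mice of both genotypes at both ends. FAKO 24 and FAKO 25 had the highest shares of mitochondrial counts (37.4% and 39.3%, against 26.1% to 33.8% in CTRL mice). FAKO 23 had the highest sums of T and B cell markers, and FAKO 27 the highest sum of neutrophil markers.

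Afdn itself was checked first. This gene lies on chromosome 17 from 13760539 to 13906150 (mm10, the build of all coordinates here). In CTRL mice Afdn had 67.9, 75.5, 71.2, 73.7 and 79.2 CPM. In FAKO mice it ran from 53.3 to 65.3 CPM with a median of 57.9, and every FAKO mouse was below every CTRL mouse. The means were 73.5 ± 4.27 (SD, n = 5) and 58.5 ± 4.15 (SD, n = 7), and the log2 fold change of -0.33 (SE 0.09) did not pass the threshold in the quasi-likelihood test (adjusted p = 0.116). Taken alone, the CPM of Afdn gave p = 0.00126 by an exact two-sided permutation test, the smallest that 7 mice against 5 allow. Of the other settings tried, DESeq2 called the gene and no other did. Without cold Afdn had a log2 fold change of -0.01 (SE 0.08, 30 °C), so the groups are named here by their labels. Counts were summed over the whole gene, so they do not show whether the floxed exon was lost.

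Across the transcriptome, 24 genes passed the threshold, 0.139% of the genes tested. Of these, 8 were higher in FAKO mice (0.0463%) and 16 were lower (0.0926%). The split moved with the scaling, to 4 higher and 1 lower with library size alone and 7 higher and 24 lower with upper-quartile factors. With DESeq2, which differs in its test as well as its scaling, it was 114 higher and 83 lower. At an unadjusted p below 0.05 there were 1292 genes higher in FAKO mice (7.47%) and 1031 lower (5.96%). In 57 genes (0.33%) all 7 FAKO mice were above all 5 CTRL mice, and in 135 genes (0.781%) all were below. The median log2 fold change over all genes was 0.02. In the same fit, 14 genes (0.081%) differed between the genotypes at 30 °C, and for 200 genes (1.16%) the genotype difference at 5 °C differed from that at 30 °C. The genes that were higher and those that were lower after cold are of different kinds. The higher ones include 4 neighbours of Adipoq and 1 processed pseudogene, 7 of the 8 being protein-coding. The lower ones include Neat1, 6 other noncoding genes and 9 protein-coding genes. The number of calls moved with single libraries. It was 10, 11, 7 and 13 without CTRL 17, 18, 19 or 21, it was 12, 15 and 14 without FAKO 24, 25 or 27, and it was 100 without FAKO 22. Only Ino80d, Ubn2, Gm11868, Kng1, Eif4a2 and Rfc4 were called whichever of the 12 libraries was left out.

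**Figure D1:**
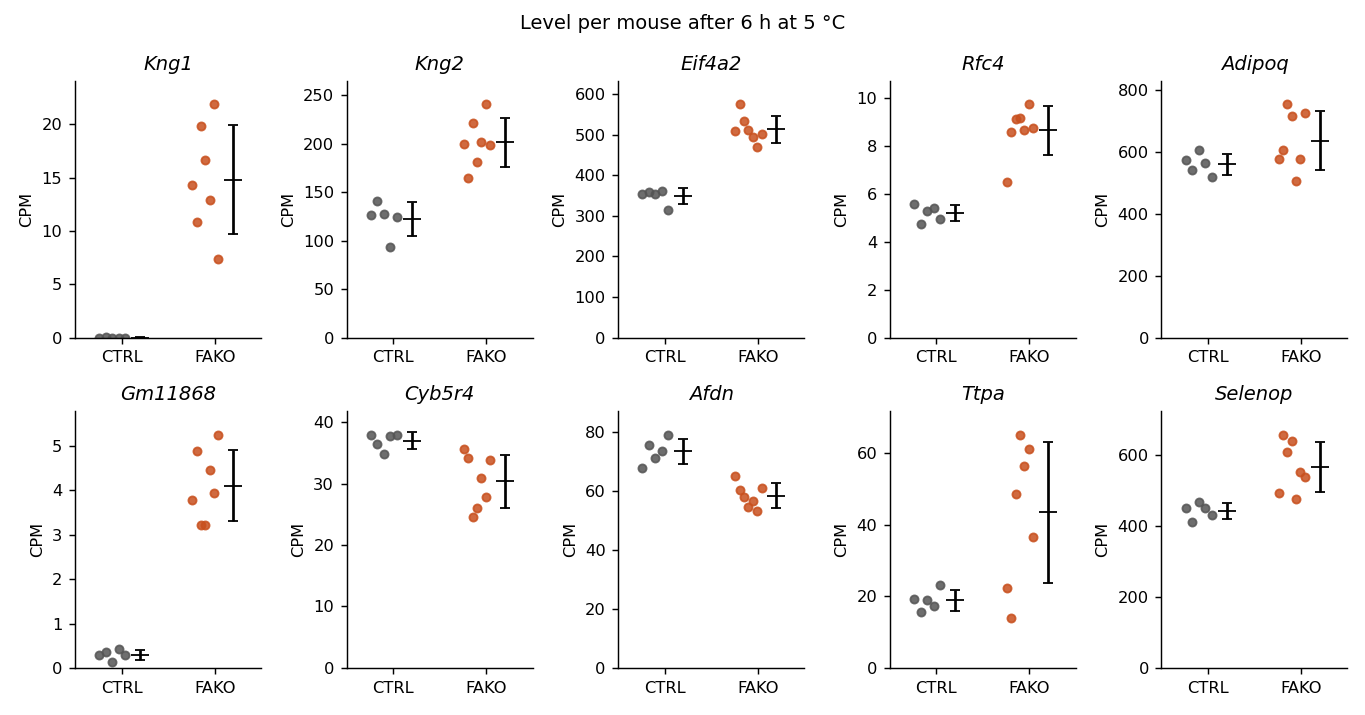
Level of 10 genes in each mouse after 6 h at 5 °C, in CPM (vertical axes, from 0), with 1 point per mouse (5 CTRL in grey, 7 FAKO in orange) and the mean ± SD beside the points. Kng1, Kng2, Eif4a2, Rfc4, Gm11868 and Selenop were higher in every FAKO mouse than in every CTRL mouse, Afdn was lower in every one, and Adipoq, Cyb5r4 and Ttpa overlapped.

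The strongest differences lay around Adipoq, the gene of adiponectin, on chromosome 16 (23146536 to 23158028), whose regulatory sequence drives the Cre. Of the 9 other genes tested within 200 kb of it, all had a positive log2 fold change, as did 54.8% of all genes tested, and 4 were called higher (0.0463% of all genes), namely Kng1, Kng2, Eif4a2 and Rfc4. These positions were part of the reason for looking there, and earlier results of these data were known, so the count is a description.

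Kng1 (23057865 to 23082078) encodes kininogen, a liver-made precursor of bradykinin. In CTRL mice a single count of Kng1 was found, in CTRL 17, and the other 4 mice were at 0. In FAKO mice Kng1 had 123 to 389 counts, or 7.35 to 21.9 CPM with a median of 14.3. The ratio of the summed counts, scaled to depth, was 1350 (95% exact interval 241 to 53200, counting error only). The fitted log2 fold change of Kng1 was 9.67 (SE 0.47, adjusted p = 1.8e-13), a value that depends on the prior count of the fit. At 30 °C it was 7.88 (SE 0.37), and the difference between the temperatures did not pass the threshold (adjusted p = 0.481).

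Kng2 (22985854 to 23029482), a second kininogen gene, lies 117 kb from Adipoq, Kng1 64.5 kb, and was well expressed in both groups. It had 126, 141, 128, 93.6 and 124 CPM in CTRL mice and 165 to 241 CPM (median 199.9) in FAKO mice, without overlap. Its log2 fold change was 0.72 (SE 0.14, adjusted p = 0.0332), and the call was lost without any 1 of 8 libraries (CTRL 16, 17, 18, 19 or 21, or FAKO 24, 27 or 28), the 12 fits with 1 library left out ranging from 0.63 to 0.77. The transcripts of Kng1 and Kng2 share part of their sequence. Of 2156 windows of 100 bases, the length of a read, in the longest Kng1 transcript, 125 (5.8%) occur without mismatch in Kng2, so the reads of the 2 genes can be told apart over most of their length. Gm6493, a processed pseudogene within the span of Kng2, had 2.70 to 4.09 CPM in CTRL mice and 4.90 to 7.26 CPM in FAKO mice, also without overlap, with a log2 fold change of 0.86 (SE 0.23) that did not pass the threshold (adjusted p = 0.110).

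Eif4a2 (23107444 to 23114136) encodes an RNA helicase of translation initiation, and Rfc4 (23113943 to 23127737), on the opposite strand and overlapping its end, a subunit of the clamp loader of DNA replication. Eif4a2 had 353, 359, 354, 361 and 313 CPM in CTRL mice and 469.7 to 574 CPM (median 508) in FAKO mice. Its log2 fold change was 0.56 (SE 0.08, adjusted p = 0.00063), and the 2 groups were far apart in relation to their spread. Rfc4 had 5.58, 4.74, 5.28, 5.40 and 4.95 CPM in CTRL mice and 6.50 to 9.73 CPM (median 8.72) in FAKO mice, and its log2 fold change was 0.73 (SE 0.09, adjusted p = 0.00012). At 30 °C both were also called, with log2 fold changes of 0.40 for Eif4a2 and 0.57 for Rfc4. The test of a difference between the temperatures did not pass the threshold for either (adjusted p = 0.463 and 0.541).

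Adipoq itself did not follow its neighbours. It had 575, 542, 607, 564 and 518 CPM in CTRL mice and 506 to 754 CPM (median 607) in FAKO mice, so the groups overlapped (log2 fold change 0.18, SE 0.11, adjusted p = 0.495). The antisense gene B630019A10Rik, 17.3 kb away, was at most 0.178 CPM in CTRL mice and at most 0.665 CPM in FAKO mice, and its log2 fold change was 2.01 (SE 0.52, adjusted p = 0.108). St6gal1, a sialyltransferase gene, had 0.10 (SE 0.08, adjusted p = 0.613). Around Afdn, by comparison, none of the 20 other genes tested within 1000 kb was called, 11 being positive and 9 negative. The nearest to the threshold was Airn, an imprinted antisense RNA of Igf2r, 900 kb away, at -0.41 on the log2 scale (SE 0.09, adjusted p = 0.0619).

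The second strongest difference was in Gm11868, a processed pseudogene on chromosome 4 (18844202 to 18845679, minus strand). Its transcript aligns over 1478 bases to the mRNA of Cyb5r4, the gene of a cytochrome b5 reductase on chromosome 9 (87022014 to 87077774), with 23 mismatches (98.44% identity). The 100 bases below, from GENCODE M21, are the stretch inside the coding sequence of Cyb5r4 where the 2 transcripts differ most, and they are shown because a read of this length is what separates the gene from its copy. Capitals mark the 4 bases that differ.
Gm11868: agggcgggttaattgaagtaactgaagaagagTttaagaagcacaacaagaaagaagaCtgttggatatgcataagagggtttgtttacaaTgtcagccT
Cyb5r4: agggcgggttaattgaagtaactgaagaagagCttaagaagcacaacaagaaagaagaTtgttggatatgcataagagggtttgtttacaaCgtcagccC
Of 1379 windows of 100 bases in Gm11868, 164 (11.9%) occur without mismatch in Cyb5r4. Of 3733 such windows in the longest Cyb5r4 transcript, 119 (3.19%) occur in Gm11868. Most reads could thus be placed, but the counts of each gene remain uncertain to its own extent. Gm11868 had 0.297, 0.348, 0.129, 0.416 and 0.288 CPM in CTRL mice and 3.22 to 5.26 CPM (median 3.94) in FAKO mice. Its log2 fold change was 3.80 (SE 0.30, adjusted p = 7.5e-09) at 5 °C and 4.05 (SE 0.28) at 30 °C, and it was called at both temperatures. Cyb5r4, chosen after its values were seen, had 38.0, 36.4, 34.8, 37.8 and 37.9 CPM in CTRL mice and 24.6 to 35.6 CPM (median 30.9) in FAKO mice, and its log2 fold change was -0.28 (SE 0.09, adjusted p = 0.162).

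**Figure D2:**
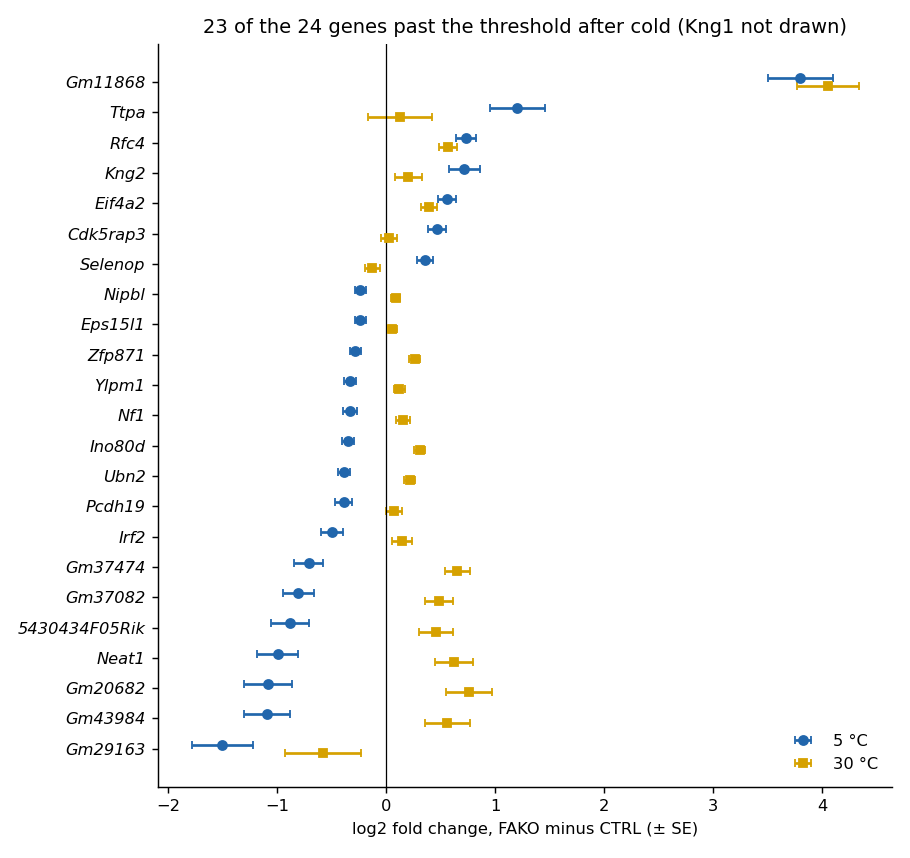
Log2 fold change of FAKO over CTRL mice with its SE (horizontal axis) for 23 of the 24 genes called after cold, at 5 °C (circles) and at 30 °C (squares). Kng1, at 9.67, is not drawn. The 16 lower genes other than Gm29163 lie on opposite sides of 0 at the 2 temperatures, while Gm11868, Rfc4, Kng2, Eif4a2, Cdk5rap3 and Ttpa were on the same side.

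At the 2 temperatures the genes called after cold behaved differently by direction. Of the 16 genes called lower at 5 °C, 15 had a positive log2 fold change at 30 °C, and 3 of these were called higher there, Gm37474 (0.65, SE 0.12), Ino80d (0.31, SE 0.05) and Zfp871 (0.26, SE 0.05). For the same 15 genes the test of a difference between the temperatures passed the threshold, but it uses the 5 °C libraries on which they were chosen, so this count is a description. Of the 8 genes called higher at 5 °C, Kng1, Gm11868, Eif4a2 and Rfc4 were also called higher at 30 °C and only Selenop had a negative value there (-0.12, SE 0.07). The mice of the 2 temperatures are different animals.

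The other 3 genes called higher lie elsewhere. Ttpa encodes the transfer protein for vitamin E (alpha-tocopherol) and had 19.2, 15.5, 19.1, 17.3 and 23.2 CPM in CTRL mice. In FAKO mice it ran from 14.0 to 65.1 CPM with a median of 48.7. The spread was wide (SD 19.7 against 2.83), since FAKO 23 and FAKO 22 lay within or below the CTRL range and the other 5 above it. The log2 fold change of Ttpa was 1.20 (SE 0.25, adjusted p = 0.0428), and its call was lost when any 1 of 10 libraries was left out, all but FAKO 22 and FAKO 23, the 12 fits with 1 library left out ranging from 1.08 to 1.36. Selenop, the gene of the plasma selenium carrier selenoprotein P, had 409.7 to 468 CPM in CTRL mice and 475 to 656 CPM (median 551) in FAKO mice, without overlap (log2 fold change 0.36, SE 0.07, adjusted p = 0.0428). It too was lost without any 1 of 10 libraries, all but FAKO 22 and FAKO 26, in a range of 0.31 to 0.40. Cdk5rap3, which encodes a partner of the ufmylation machinery of the endoplasmic reticulum, had 6.13 to 7.25 CPM in CTRL mice and 6.50 to 10.7 CPM in FAKO mice, with only FAKO 22 inside the CTRL range (log2 fold change 0.47, SE 0.08, adjusted p = 0.0118). Without CTRL 19 its adjusted p was 0.0503 and the call was lost. For Selenop and Cdk5rap3 the difference at 5 °C exceeded that at 30 °C, by 0.48 and 0.44 on the log2 scale (adjusted p = 0.0239 and 0.0400).

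Neat1 was the most abundant of the genes called lower in FAKO mice. This long noncoding RNA of chromosome 19 (5824708 to 5845478) stays in the nucleus and scaffolds the bodies called paraspeckles. It had 2333, 3589, 2265, 3778 and 5405 CPM in CTRL mice and 1262 to 2117 CPM (median 1795) in FAKO mice. All FAKO mice were below all CTRL mice, and the CTRL mice spread more widely (SD 1284 against 278). The log2 fold change of Neat1 was -0.99 (SE 0.19, adjusted p = 0.0206), and the call was lost without CTRL 17, 19 or 21 or FAKO 27, with a range of -1.11 to -0.78 over the 12 fits. At 30 °C the sign was the opposite (0.62, SE 0.17, adjusted p = 0.270), and the difference between the temperatures was -1.61 (SE 0.26, adjusted p = 0.00268).

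The other 6 noncoding genes called lower are of low level. Gm29163, an snRNA entry, averaged 2.04 CPM in CTRL mice and its log2 fold change was -1.50 (SE 0.28, adjusted p = 0.0172). It lies on the opposite strand of an intron of Bckdhb on chromosome 9 (83938369 to 83938475). The remaining 5 lie in introns of protein-coding genes, on the same strand as the host. Gm43984 (chromosome 6, 134084601 to 134087464) lies in Etv6, 5430434F05Rik (chromosome 6, 83417440 to 83420992) in Tet3, Gm20682 (chromosome 12, 99292608 to 99296620) in Foxn3, and Gm37474 and Gm37082 (chromosome 9, 32525145 to 32526958 and 32535251 to 32537177) both in Fli1. Gm20682 is annotated as sense intronic and the other 4 as TEC, entries for transcripts still to be experimentally checked. Their log2 fold changes were -1.09 (SE 0.21) for Gm43984, -1.08 (SE 0.22) for Gm20682, -0.88 (SE 0.17) for 5430434F05Rik, -0.80 (SE 0.14) for Gm37082 and -0.71 (SE 0.13) for Gm37474. In all 6 genes every FAKO mouse was below every CTRL mouse. In Gm37082, for example, CTRL mice had 4.92, 4.32, 4.81, 4.52 and 4.26 CPM and FAKO mice 1.97 to 3.42 CPM (median 2.69).

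The host genes had smaller log2 fold changes. Foxn3 had a log2 fold change of -0.01 (SE 0.10), Fli1 of -0.08 (SE 0.10), Etv6 of -0.23 (SE 0.10) and Tet3 of -0.28 (SE 0.11), none of them called. The call of Gm43984 was lost without CTRL 16, 17, 18 or 19 or FAKO 24, 25 or 27, that of 5430434F05Rik without CTRL 17, 18, 19 or 21 or FAKO 23, 24 or 27, and that of Gm20682 without any library but FAKO 22, 26 and 27. Gm37474 was lost without CTRL 17, 19 or 21 or FAKO 24 or 25, and Gm37082 and Gm29163 without CTRL 18 or 19. Over the 12 fits with 1 library left out, the log2 fold changes lay between -1.17 and -1.02 for Gm43984, -0.95 and -0.81 for 5430434F05Rik, -1.18 and -1.002 for Gm20682, -0.79 and -0.66 for Gm37474, -0.88 and -0.74 for Gm37082, and -1.63 and -1.39 for Gm29163.

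The class of such entries leaned the same way. Of 961 TEC genes tested, 708 (73.7%) had a negative log2 fold change, beside 45.2% of all genes, 160 of them (16.6%) at an unadjusted p below 0.05 against 7 with a positive one, and the median was -0.19. Of 123 sense intronic genes, 99 (80.5%) were negative, 25 (20.3%) at p below 0.05 against 0, and the median was -0.23. Antisense genes had a median of -0.13 (79 lower and 17 higher of 750), and protein-coding genes 0.04 (640 lower and 1207 higher of 13662). In 31 TEC genes (3.23%) and 9 sense intronic genes (7.32%) all FAKO mice were below all CTRL mice, beside 0.781% of all genes. At 30 °C the medians of the TEC and sense intronic genes were 0.23 and 0.21, on the other side of 0.

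The position in the genome separated the TEC genes further. The 628 that lie in an intron of a tested protein-coding gene on the same strand had a median of -0.24, with 135 (21.5%) lower at p below 0.05. The 138 that lie in no protein-coding gene had a median of -0.05, with 9 (6.5%) lower. With the sense intronic genes, 746 entries lay in same-strand introns, and 582 of them had a lower log2 fold change than their host. The 494 hosts, each counted once, had a median of -0.015 with 59 (11.9%) lower at p below 0.05. Many of these entries share a host, so they are not independent.

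TEC and sense intronic genes together took 0.427% of the counts off the mitochondrial genome in the median CTRL mouse (0.405% to 0.439%) and 0.356% in the median FAKO mouse (0.331% to 0.372%), with no overlap (exact two-sided permutation test, p = 0.00126, the smallest that these groups allow, and 0.0063 after adjustment over 10 such shares). Taken as a share of all counts, mitochondrial ones included, Neat1 alone gave an exact permutation p of 0.00253 (adjusted 0.00843). Malat1, another nuclear RNA, gave an exact permutation p of 0.0101 (adjusted 0.0252) on the same base. Neat1 had already been called from these same libraries. At 30 °C the median shares of TEC and sense intronic genes off the mitochondrial genome were 0.421% in CTRL and 0.480% in FAKO mice, in the opposite order. The share of mitochondrial counts overlapped between the groups and gave an exact permutation p of 0.966. That of cytosolic ribosomal protein genes, also of all counts, gave an exact permutation p of 0.542. Without FAKO 24 and FAKO 25, the libraries with the highest mitochondrial shares, the median log2 fold change of the TEC and sense intronic genes was -0.20, and without FAKO 23 and FAKO 27 it was -0.21. The part of RNA quality, dissection or library preparation in this difference was not tested.

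**Figure D3:**
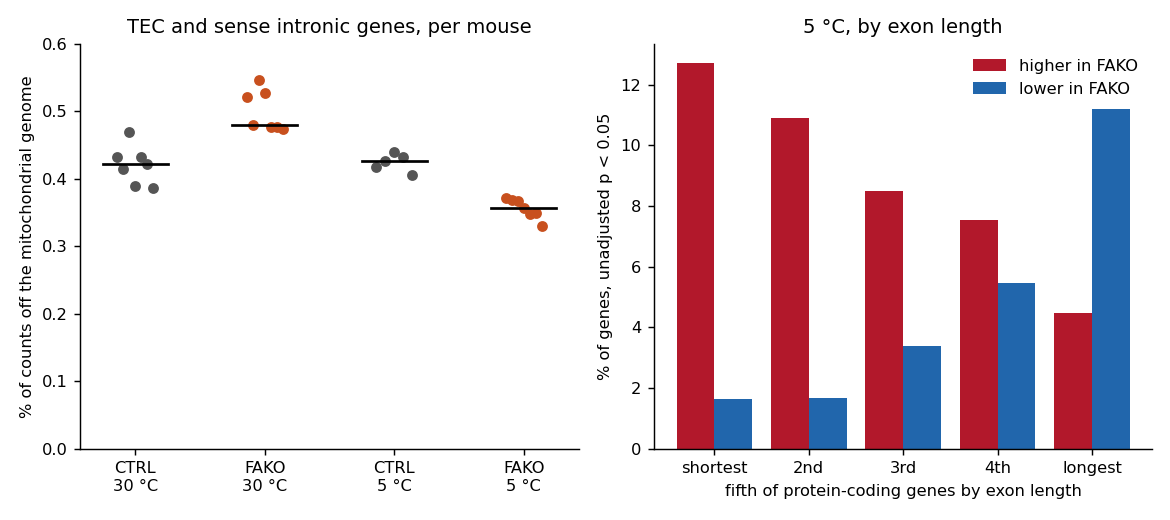
Left, share of counts off the mitochondrial genome that fell on TEC and sense intronic genes (vertical axis, %), with 1 point per mouse and lines at the group medians. Right, share of protein-coding genes with an unadjusted p below 0.05 at 5 °C (vertical axis, %), in red higher and in blue lower in FAKO mice, in 5 classes of exon length from the shortest to the longest. The shares of FAKO mice are all above CTRL at 30 °C and all below at 5 °C, and the blue bars go from 1.65% in the shortest to 11.2% in the longest genes.

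The 9 protein-coding genes called lower had small differences with tight groups, from -0.50 to -0.23 on the log2 scale. Ubn2, which encodes a partner of the histone chaperone HIRA, had 59.7, 67.0, 66.1, 67.8 and 73.9 CPM in CTRL mice and 47.9 to 54.3 CPM (median 51.3) in FAKO mice (log2 fold change -0.38, SE 0.06, adjusted p = 0.0008). Ino80d, a subunit of a chromatin remodeller, had 53.9, 62.7, 61.0, 60.8 and 60.0 CPM in CTRL mice and 45.0 to 49.6 CPM (median 46.2) in FAKO mice (log2 fold change -0.35, SE 0.06, adjusted p = 0.00609). In both genes the groups were separate, and leaving out any library kept the call. Zfp871, a zinc finger gene, had 53.6 to 55.5 CPM in CTRL mice and 39.5 to 48.1 CPM in FAKO mice (-0.28, SE 0.05, adjusted p = 0.0137). Ylpm1, the gene of a nuclear protein phosphatase partner, had 39.9 to 46.7 against 32.0 to 36.4 CPM (-0.33, SE 0.06, adjusted p = 0.0118). The first lost its call without CTRL 17 or 19 (-0.30 to -0.25) and the second without CTRL 17 (-0.35 to -0.29).

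The other 5 were closer to the threshold and were lost without 9 or 10 of the 12 libraries. Nf1, the Ras regulator neurofibromin, was at -0.33 on the log2 scale (SE 0.07, adjusted p = 0.0352, range without 1 library -0.36 to -0.30). Nipbl, which loads cohesin onto DNA, had -0.23 (SE 0.05, adjusted p = 0.0428, range -0.27 to -0.20). Eps15l1, an endocytosis adaptor, had -0.24 (SE 0.05, adjusted p = 0.0352, range -0.25 to -0.21). These 3 genes lost the call without any library but CTRL 16, FAKO 22 and FAKO 26. Pcdh19, a protocadherin, had -0.39 (SE 0.08, adjusted p = 0.0352, range -0.42 to -0.34) and was lost without any library but FAKO 22 and FAKO 26. Irf2, a transcription factor of interferon signalling, had -0.50 (SE 0.10, adjusted p = 0.0407, range -0.57 to -0.43), was lost without any library but CTRL 16, FAKO 22 and FAKO 27, and was the only gene called lower whose groups overlapped, FAKO 22 and FAKO 27 (12.6 and 12.3 CPM) lying above CTRL 16 (12.2 CPM).

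These lower protein-coding genes are long. Their exons add up to 6739 to 21438 bases (median 10464), against 1533 to 5338 (median 3250) in the 7 protein-coding genes called higher and a median of 4480 in all protein-coding genes tested. The protein-coding genes that were not called also differed by length. Of 5 classes of about equal size by exon length, the shortest held 348 genes (12.7%) higher and 45 (1.65%) lower at an unadjusted p below 0.05, with a median log2 fold change of 0.09. The longest held 122 (4.46%) higher and 307 (11.2%) lower, with a median of -0.02. At 30 °C the medians ran the other way, from -0.07 in the shortest to 0.01 in the longest class. By the span of the gene in the genome the order was the same, from 0.08 in the shortest to 0.003 in the longest class. Whether RNA length, RNA quality or the counting had a part in this was not tested.

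After the genes called, the largest differences without overlap at a mean of at least 1 CPM were in genes of low level. Gm37033, a TEC gene of chromosome 1, had 15.4 to 18.7 CPM in CTRL mice and 4.19 to 13.0 CPM in FAKO mice (log2 fold change -0.94, SE 0.28, adjusted p = 0.139). Gm43387, Gm43099 and Gm44716, TEC or sense intronic genes, had log2 fold changes of -0.92, -0.91 and -0.86, and the pseudogene Gm29164, also in chromosome 9 near Gm29163, had -0.92 (SE 0.20, adjusted p = 0.0592). On the higher side, Katnal2, a relative of the microtubule-severing enzyme katanin, had 2.75 to 3.86 CPM in CTRL mice and 4.03 to 9.83 CPM in FAKO mice (0.88, SE 0.24, adjusted p = 0.116), led by FAKO 24 and FAKO 25. Jaml, an adhesion molecule of leukocytes, had 0.81 (SE 0.24, adjusted p = 0.139) with its highest value, 9.45 CPM, in FAKO 27. Hist1h3f, a replication-dependent histone, had 0.75 (SE 0.17, adjusted p = 0.0732), the pseudogene Gm7331 had 0.76 and S100a4, a calcium-binding protein of motile and stromal cells, 0.62 (SE 0.20, adjusted p = 0.173).

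The thermogenic programme itself differed little in these libraries. No gene of a list of 30 thermogenic genes passed the threshold, 20 had positive and 10 negative log2 fold changes, and the median was 0.04, beside 0.02 for all genes. With library size alone as the scaling the median was -0.01. Ucp1 had 15960, 15617, 16658, 16450 and 15340 CPM in CTRL mice and 13014 to 20990 CPM (median 16651) in FAKO mice (log2 fold change 0.04, SE 0.15, adjusted p = 0.951). The FAKO mice spread on both sides of the CTRL mice. By RT-qPCR, the study reported a weaker cold induction of Ucp1 mRNA in BAT of FAKO than of control mice. That assay is not part of these counts, and the reason for the difference was not tested. Ppargc1a, the coactivator of mitochondrial biogenesis, had 559 ± 152 CPM (SD, n = 5) in CTRL mice and 564 ± 175 CPM (SD, n = 7) in FAKO mice (0.01, SE 0.20, and -0.12 without FAKO 24). Cidea, a lipid droplet protein typical of brown fat, had 0.16 (SE 0.10, 0.09 without FAKO 24), and Prdm16, a factor of brown fat identity, had 0.19 (SE 0.15, 0.11 without CTRL 21). The smallest unadjusted p in the list were those of Esrrg, an estrogen-related receptor (0.45, SE 0.19, adjusted p = 0.304), and Ucp3 (0.56, SE 0.27, adjusted p = 0.366, or 0.34 without FAKO 24).

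Among 33 genes of adrenergic and cyclic AMP signalling, none was called, and the median was -0.005. In 2 of them, Pde10a, a phosphodiesterase, and Adcy4, an adenylyl cyclase, all FAKO mice were below all CTRL mice, as in 0.781% of all genes. Their log2 fold changes were -0.35 (SE 0.11, adjusted p = 0.160) and -0.28 (SE 0.10, adjusted p = 0.231). Rapgef3, an exchange factor for Rap1 that cyclic AMP activates, had -0.25 (SE 0.11, adjusted p = 0.293). Of 20 genes of Afadin, the nectins and their partners at junctions, 11 were positive and 9 negative (median 0.01). After Afdn came Ctnnd1, the gene of p120-catenin (-0.21, SE 0.09, adjusted p = 0.318).

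No gene of fat and sugar metabolism was called. The counts that follow stand beside 54.8% positive, 7.47% higher and 5.96% lower at an unadjusted p below 0.05 among all genes. Of 50 genes of glycolysis and lactate handling, 40 were positive, 15 of them at an unadjusted p below 0.05 against 1 lower, and the median was 0.19. Fbp2, a muscle-type fructose bisphosphatase, was at 0.62 on the log2 scale (SE 0.16, adjusted p = 0.106), Pdk1, a kinase that inhibits pyruvate dehydrogenase, 0.53 (SE 0.15, adjusted p = 0.139), and Galm, galactose mutarotase, 0.42 (SE 0.13, adjusted p = 0.151). With library size alone 4 genes of this list were higher at p below 0.05, and without FAKO 24 and FAKO 25 it was 10.

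Of 31 genes of lipogenesis and triglyceride synthesis, 24 were positive (8 at p below 0.05, median 0.17). Scd1, the desaturase that makes monounsaturated fatty acids, had the smallest p (0.71, SE 0.24, adjusted p = 0.204), followed by Lpin2 (0.16, SE 0.07) and Acaca (0.49, SE 0.21), the gene of acetyl-CoA carboxylase. Of 25 genes of cholesterol synthesis, 21 were positive (8 at p below 0.05, median 0.17), with Fdft1, squalene synthase, at 0.61 (SE 0.17, adjusted p = 0.119). Of 24 genes of lipolysis and the lipid droplet, 20 were positive (4 at p below 0.05, median 0.17), with Mgll, monoglyceride lipase, at 0.26 (SE 0.09, adjusted p = 0.204) and Lipe, hormone-sensitive lipase, at 0.16 (SE 0.11). Of 54 genes of PPAR signalling, 38 were positive (10 higher and 3 lower at p below 0.05, median 0.15). Dbi, an acyl-CoA binding protein, had 0.40 (SE 0.12, adjusted p = 0.146), while Pparg itself had -0.16 (SE 0.07, adjusted p = 0.329) and Fabp4 0.12 (SE 0.07). Fatty acid oxidation had a median of 0.095 (26 of 30 positive) and retinoid metabolism 0.18 (19 of 23 positive), led by Aldh1a7 at 0.56 (SE 0.15, adjusted p = 0.113). With library size alone the genes higher at p below 0.05 were 2 for lipogenesis, 3 for cholesterol synthesis, 1 for lipolysis and 3 for PPAR signalling. Without FAKO 24 and FAKO 25 they were 3, 6, 3 and 4. Lipe was at 0.09 without FAKO 24, and Fabp4 at 0.05 without FAKO 27.

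No gene of the respiratory chain or ribosomal protein lists was called. Of 85 nuclear-encoded subunits of the respiratory chain and ATP synthase, 80 were positive with a median of 0.09, but only 3 had a p below 0.05. Of 83 cytosolic ribosomal protein genes, 80 were positive with a median of 0.11, 31 of them at p below 0.05. With library size alone 1 of these 83 genes, and without FAKO 23 and FAKO 27 14 of them, had a p below 0.05. Rps25 (0.22, SE 0.06, adjusted p = 0.130) and Rpl39 (0.25, SE 0.08, adjusted p = 0.154) are examples. Mitochondrial ribosomal proteins had a median of 0.04 (58 of 77 positive, but 39 positive and 38 negative with a median of 0.002 with library size alone), and the 8 mitochondrially encoded proteins tested had 0.08, or -0.24 without FAKO 24 and FAKO 25. The replication-dependent histones, short mRNAs made mostly in S phase, had a median of 0.215 with 27 of 39 positive and 12 at p below 0.05. Of 12 markers of dividing cells 4 were positive and 1 was lower at p below 0.05 (median -0.14), and without FAKO 24 and FAKO 25 6 were positive (median -0.03). The libraries were made by removing ribosomal RNA and not by poly(A) selection, so that RNAs without a poly(A) tail, such as histone mRNAs, were counted.

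**Figure D4:**
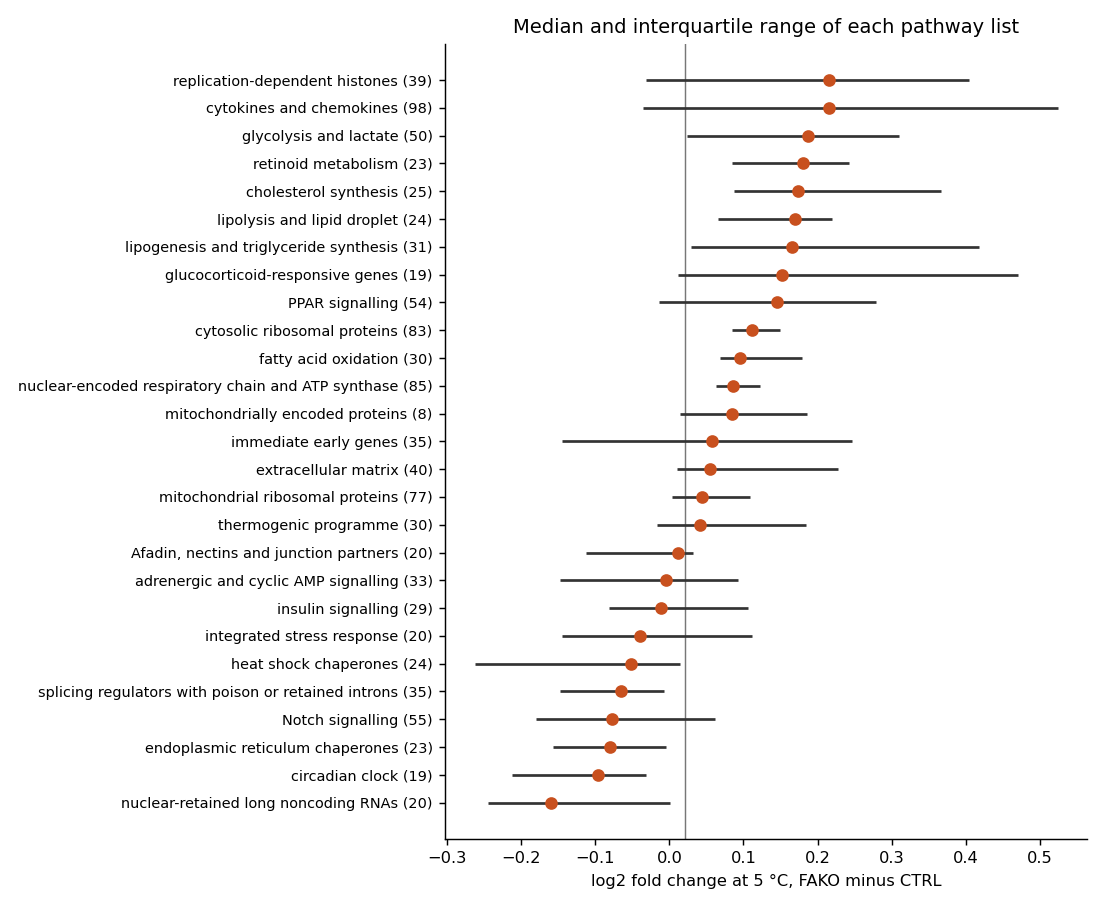
Median (point) and interquartile range (line) of the log2 fold changes at 5 °C, FAKO minus CTRL (horizontal axis), for each of 27 pathway lists, with the number of genes tested in brackets. The grey line gives the median of all genes tested (0.02). The medians run from -0.16 for nuclear-retained long noncoding RNAs to 0.215 for histones and for cytokines.

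Several lists had more negative members than the 45.2% of all genes. The list of nuclear-retained long noncoding RNAs holds 20 genes, with the protein-coding Nktr among them. Of these 20, 15 were negative, 6 of them at a p below 0.05, with a median of -0.16, Neat1 being the only one called. Kcnq1ot1, the imprinted antisense RNA of Kcnq1, had -0.23 and Malat1 -0.22 (both chosen after their values were seen), and Snhg11 had a positive value of 0.43 (SE 0.15, adjusted p = 0.214). Of 35 splicing regulators, 27 were negative (9 at p below 0.05, median -0.065, but 2 with library size alone and 1 without FAKO 24 and FAKO 25), with Ccnl2 at -0.27 (SE 0.10, adjusted p = 0.225) and Son at -0.13 (SE 0.05, adjusted p = 0.232). Of 55 genes of Notch signalling, 34 were negative, 10 at p below 0.05 against 1 higher (median -0.08). Tle2, a corepressor, had -0.87 (SE 0.20, adjusted p = 0.0741), Crebbp, a histone acetyltransferase, -0.26 (SE 0.07, adjusted p = 0.106), and Notch3, the receptor of pericytes and vascular smooth muscle, -0.41 (SE 0.11, adjusted p = 0.116). Of 19 clock genes, 15 were negative. Per2, a core clock gene, had -0.35 (SE 0.11, adjusted p = 0.170) with all FAKO mice below all CTRL mice, as in 0.781% of all genes. Of 23 chaperones of the endoplasmic reticulum, 18 were negative (median -0.08), with Derl3 at -0.89 (SE 0.22, adjusted p = 0.0887).

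Other lists had medians on either side of the 0.02 of all genes. The medians were 0.058 for immediate early genes and 0.055 for the extracellular matrix (both about 0 and negative with library size alone), 0.15 for glucocorticoid-responsive genes, -0.01 for insulin signalling, -0.04 for the integrated stress response and -0.05 for heat shock chaperones, with no gene called. Without FAKO 23 and FAKO 27 the integrated stress response was at -0.27 and the immediate early genes were at -0.09, and without FAKO 24 and FAKO 25 the glucocorticoid-responsive genes were at -0.03. In the glucocorticoid list, the metallothioneins Mt1 and Mt2 had log2 fold changes of 0.70 (SE 0.25, adjusted p = 0.232) and 0.73 (SE 0.33, adjusted p = 0.342), or 0.37 and 0.34 without FAKO 27. In the matrix list, Col12a1, a collagen of stressed connective tissue, had 1.03 (SE 0.37, adjusted p = 0.232), but 0.31 without FAKO 27, which stood at 603 CPM where the other FAKO mice had at most 150.2 CPM.

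No cell type marker passed the threshold in any list. Among all genes, 54.8% were positive, and 7.47% were higher and 5.96% lower at an unadjusted p below 0.05. The marker and cytokine counts below stand beside these shares. The largest medians were those of blood and immune markers. All 9 red blood cell markers were positive, 7 at p below 0.05, with a median log2 fold change of 0.93. Their summed level was 423 to 692 CPM in CTRL mice (median 463) and 524 to 1514 CPM in FAKO mice (median 853). Hbb-bs, a beta-globin, had 0.93 (SE 0.31, adjusted p = 0.195), and Alas2, the erythroid enzyme of haem synthesis, chosen after its values were seen, had 0.76. The median stayed at 0.81 without FAKO 23 and FAKO 27 and at 1.15 without FAKO 24 and FAKO 25.

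B cell markers were all positive (8 of 8, 7 at p below 0.05, median 1.80), but their sum was 3.43 to 6.41 CPM in CTRL mice and 2.99 to 48.7 CPM in FAKO mice, with FAKO 23 at the top. T and NK cell markers were positive in 9 of 12 (median 1.17), with sums of 3.91 to 6.22 and 3.87 to 36.6 CPM, again led by FAKO 23. Neutrophil markers were positive in 7 of 8 (median 0.95), with sums of 10.8 to 18.9 and 9.98 to 93.5 CPM, led by FAKO 27. Without FAKO 23 and FAKO 27 the medians were 0.20 for B cells, 0.003 for T and NK cells and 0.51 for neutrophils, and none of these markers had a p below 0.05. Ighm, the gene of the IgM heavy chain (1.27, SE 0.43, adjusted p = 0.199), Cd4 (1.21, SE 0.41, adjusted p = 0.197) and S100a9 (1.34, SE 0.54, adjusted p = 0.270), a calcium-binding protein of neutrophils, are examples from the 3 lists. They were at 0.76 and 0.71 (Ighm and Cd4) without FAKO 23 and at 0.52 (S100a9) without FAKO 27.

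The list of cytokines and chemokines moved with the same 2 mice. Of 98 genes, 70 were positive, 19 at p below 0.05 against 0 lower, with a median of 0.215, but without FAKO 23 and FAKO 27 the median of 96 genes was -0.01, with 7 higher and 4 lower. Il1rl1, the receptor of IL-33, had 1.30 (SE 0.36, adjusted p = 0.123), Il33 itself 1.40 (SE 0.46, adjusted p = 0.186) and Lep, the gene of leptin, 1.36 (SE 0.42, adjusted p = 0.159). Without FAKO 27 they were at 0.75, 0.69 and 0.75. Macrophage markers were positive in 14 of 15 (4 at p below 0.05, median 0.27, or 0.09 without FAKO 23 and FAKO 27), with sums of 331 to 416 CPM in CTRL mice and 342 to 499 CPM in FAKO mice. Clec10a, a lectin of alternatively activated macrophages, had 0.67 (SE 0.23, adjusted p = 0.203). Dendritic cell markers had a median of 0.19 (5 of 8 positive), mast cell markers 0.17 (5 of 6) and the 3 thymocyte markers tested 1.38, at sums of 0.348 to 1.33 CPM in CTRL mice and 0.418 to 5.26 CPM in FAKO mice.

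Skeletal muscle markers varied over orders of magnitude in both groups, with sums from 32.2 to 6259 CPM in CTRL mice and from 30.0 to 9883 CPM in FAKO mice. No muscle gene had a p below 0.05, and the median of 0.38 became -1.18 without FAKO 24 and FAKO 25, so no direction can be given. Brown adipocyte markers summed to 30120 to 33100 CPM in CTRL mice and 30080 to 38340 CPM in FAKO mice (14 of 18 positive, median 0.12). White adipocyte markers had a median of 0.13 (3 of 6 positive), fibroblast and progenitor markers 0.05 (11 of 15, but -0.01 with library size alone) and lymphatic endothelial markers 0.21 (3 of 5).

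Pericyte, nerve and vascular endothelial markers were negative more often than not. Of 13 pericyte and smooth muscle markers, 11 were negative (2 at p below 0.05, median -0.09), with sums of 743 to 850 CPM in CTRL mice and 670.1 to 867 CPM in FAKO mice. Of 9 markers of Schwann cells and nerve, 7 were negative (median -0.27), with Ncam1, a neural adhesion molecule, at -0.61 (SE 0.23, adjusted p = 0.238) and Sox10, the Schwann cell factor, at -0.59 (SE 0.27, adjusted p = 0.338). Of 13 vascular endothelial markers, 9 were negative (median -0.045), and 1 was lower at p below 0.05, beside 5.96% of all genes, with Kdr, the VEGF receptor, at -0.18 (SE 0.09, adjusted p = 0.363). Of the mesothelial and epithelial markers only Lrrn4 could be tested (0.43, SE 0.25, or 0.11 without FAKO 24), while Upk3b and Krt8 were at 0 counts in all 12 mice, as were Ccl21a of the lymphatic, Npy of the nerve and Hoxc10 of the white adipocyte list. The part of these cell types in the differences of other genes was not tested.

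**Figure D5:**
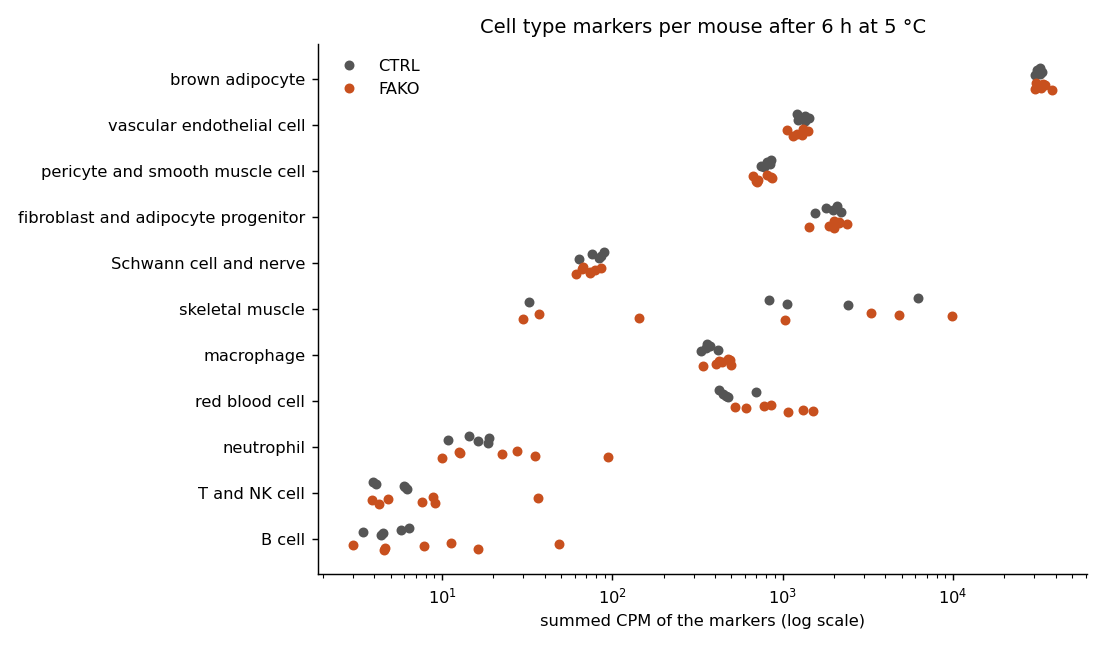
Summed level of the markers of 11 cell types in each mouse after 6 h at 5 °C (horizontal axis, CPM, log scale), with 5 CTRL mice in grey and 7 FAKO mice in orange. The red blood cell sums of FAKO mice lie between 524 and 1514 CPM, FAKO 23 stands to the right for lymphocytes and FAKO 27 for neutrophils, and skeletal muscle spans both genotypes from 30.0 to 9883 CPM.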

How the data were processed

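The authors aligned 100-base single-end reads of strand-specific, ribosomal RNA-depleted libraries to mm10 with STAR 2.5.2b and counted them per GENCODE gene with featureCounts 1.5.2. The deposited values are raw counts per gene. Groups were taken from the labels. Of 50686 genes listed, 50462 matched GENCODE M21 by identifier, and filterByExpr left 17286. In R 4.3.3, edgeR 4.0.16 (TMM factors, 1 term per group over all 26 libraries, legacy quasi-likelihood test, Benjamini-Hochberg threshold 0.05) compared FAKO with CTRL mice at 5 °C, at 30 °C, and the difference of both. An SE is the size of the log2 fold change over the root of F. Each library is 1 mouse, so the tests set a difference against the spread between mice. In the edgeR fit this spread is estimated over all 26 libraries together. Single values were compared by exact two-sided permutation tests. Intervals cover counting error only. The calculation was checked on counts simulated gene by gene from the fitted means and dispersions. Such counts cannot show whether the model holds for these mice.

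The genes named are Afdn and the brown fat genes Ucp1, Cidea, Ppargc1a, Prdm16, Fabp4, Pparg, Adipoq and Lipe. To these were added the genes called. The 10 largest differences in each direction were taken among 173 genes averaging 1 CPM or more without overlap of the groups. Up to 3 genes of smallest p were taken from each of 18 marker and 27 pathway lists. Genes within 200 kb of Adipoq or 1000 kb of Afdn were also included. Host genes and genes marked so were chosen after their values were seen. The members and lists were chosen with earlier results of these data known. The alternatives were library size alone, upper-quartile factors, no filter, at least 10 counts in every library, DESeq2 1.42.0, the revised quasi-likelihood method, robust estimation, the 12 libraries alone, and each library left out. Leaving out FAKO 24 with 25, or 23 with 27, was added after seeing the data.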

Additional observations from a re-analysis of the deposited data

Results flagged for a closer look

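For 17 of the 24 genes called after cold, the genotype difference at 5 °C differed from that at 30 °C by a test of the interaction (edgeR's quasi-likelihood test, adjusted p below 0.05), which uses the 5 °C libraries on which the genes were chosen. For 15 of these the log2 fold change at 5 °C minus that at 30 °C was negative. It was -1.84 for Gm20682, -1.65 for Gm43984, -1.61 for Neat1, -1.36 for Gm37474, -1.34 for 5430434F05Rik and -1.29 for Gm37082. It was -0.66 for Ino80d, -0.64 for Irf2, -0.60 for Ubn2, -0.55 for Zfp871, -0.49 for Nf1, -0.46 for Pcdh19, -0.45 for Ylpm1, -0.32 for Nipbl and -0.29 for Eps15l1. It was positive for Selenop (0.48) and Cdk5rap3 (0.44). In 15 of the 16 genes called lower the sign at 30 °C was positive.

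In 124 groups examined, 10 held 1 mouse far from the others by Dixon's criterion, and chance flags about 1 group in 20. Most of the immune flags lie in the mice named in the report. FAKO 23 had T and NK cell markers of 36.6 CPM (the other FAKO mice at most 9.11) and B cell markers of 48.7 CPM (at most 16.2), and FAKO 27 had neutrophil markers of 93.5 CPM (at most 35.2) and Fabp4 at 9795 CPM (at most 7729). FAKO 24 had mesothelial and epithelial markers of 13.9 CPM (at most 6.67), and CTRL 17 had red blood cell markers of 692 CPM (the other CTRL mice at most 477). Among the genes called, Eif4a2 was low in CTRL 21 (313.3 CPM), Rfc4 was low in FAKO 22 (6.50 CPM), Eps15l1 was high in FAKO 26 (44.4 CPM), and Kng1 had its single count in CTRL 17 (0.0697 CPM).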

How the results depend on the processing

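No paired analysis was possible, because the labels number the mice through the whole series and do not give their litters. The number of genes called was 24 (8 higher, 16 lower) and moved with the settings. With library size alone it was 5 (4 higher, 1 lower), with no filter 15 (8 lower), with at least 10 counts in every library 45 (34 lower, 11 higher), with upper-quartile factors 31 (24 lower), with only the 12 libraries at 5 °C 9 (3 lower, 6 higher) and with DESeq2 197 (114 higher, 83 lower), a Wald test that left 4357 genes without an adjusted p. The share of higher genes among those called thus went from 33.3% to 80% with library size alone, 22.6% with upper-quartile factors and 57.9% with DESeq2. Leaving out 1 library gave 7 (CTRL 19) to 100 (FAKO 22) genes, 4 to 62 higher and 3 to 38 lower. Without FAKO 24 and FAKO 25 it was 11 (4 higher, 7 lower), and without FAKO 23 and FAKO 27 it was 6 (5 higher, 1 lower). The cause of these moves was not tested. Kng1, Gm11868, Eif4a2 and Rfc4 were called under every setting that tested them, and the other 20 lost the call in at least 1. Of 566 values of 26 genes, 195 lost the call, 1 gained it (Afdn) and 2 turned sign, both for Ucp1, whose log2 fold change of 0.04 was -0.00325 with library size alone and -0.0306 without FAKO 28 (-0.0306 to 0.087 over the fits with 1 library left out). Of 736 medians of 46 lists, 730 moved by less than the SD between mice. Leaving out 1 mouse can hardly move a median that far, so this count does not show that the medians were stable. Without FAKO 23 and FAKO 27 the median of B cell markers went from 1.8 to 0.20. Without FAKO 24 and FAKO 25 that of skeletal muscle markers went from 0.38 to -1.18. Counts of a few reads per library, as in Kng1 in CTRL mice, limit the precision of a fold change.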
